A study of Mus musculus with 21 samples.

Results

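VEGF and angiopoietin genes encode the secreted growth factors that build and maintain blood and lymph vessels. The genes were taken by symbol (Vegfa, Vegfb, Vegfc, Pgf, Angpt1 and Angpt2), and all 6 were found among the 23869 genes of the epithelial tables and the 21170 genes of the fibroblast tables. Their transcripts were counted with 3'SAGE-seq, which sequences a short tag near the 3' end of polyadenylated RNA, in 2 cell populations sorted from mouse lung. All mice were C57BL/6 and carried a Col1a2-GFP transgene, in which the promoter of a collagen I chain gene drives a green fluorescent protein, so that the fibroblasts are the GFP-positive cells and other mesenchymal cells are not sampled. Epithelial cells were live cells negative for CD31, CD45, Ter119 and CD146 and positive for Epcam, and by the sort protocol also negative for GFP. Fibroblasts were live, negative for the same 4 markers and for Epcam, and positive for GFP. Both populations were taken at embryonic day 18.5 (E18.5) and at postnatal days 0.5, 2, 7 and 28 (P0.5, P2, P7 and P28), with 2 libraries for each cell type and stage, and fibroblasts were also taken at P56, with 1 library. No sorted endothelial cells, the main targets of these factors, were among the 21 libraries.

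VEGF-A is the principal growth factor for blood vessel endothelium and signals through the receptor VEGFR2 (Kdr), while VEGFR1 (Flt1) also binds VEGF-B and placental growth factor (Pgf). VEGF-C and VEGF-D act on VEGFR3 (Flt4), the receptor of lymphatic vessels, and the neuropilins Nrp1 and Nrp2 serve as co-receptors. Angiopoietin 1 activates the endothelial receptor Tie2 (Tek) and steadies vessels, and angiopoietin 2 is a context-dependent ligand of the same receptor that can oppose it. In the developing lung the capillary bed grows beside the alveolar epithelium, which is a well-known source of VEGF-A.

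In the mouse build GRCm38 (the mm10 named by the submitters' processing notes), the GENCODE annotation places Vegfa at chr17:46016993-46032369 and Vegfb at chr19:6982473-6987651, both on the minus strand. Vegfc lies at chr8:54077606-54187096 on the plus strand and Pgf at chr12:85166635-85177790 on the minus strand. Angpt1 lies at chr15:42424723-42676977 and Angpt2 at chr8:18690263-18741562, both on the minus strand. All 6 are protein-coding genes. Angpt2 lies wholly inside Mcph1 (chr8:18595131-18803189, plus strand), and the first bases of Angpt1 overlap the antisense gene Gm17473 (chr15:42676241-42704616, plus strand). The sources used here do not say whether strand was used in counting, so reads of such overlapping genes cannot be told apart.

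Vegfa and Vegfb are the members measured well in both cell types, and both were lower at P28 than at E18.5 in fibroblasts, so the 250 bases upstream of their starts are shown, 5' to 3' on the gene's strand, from the RefSeq promoter table of GRCm38.p6 (Vegfa chr17:46032378-46032627, Vegfb chr19:6987652-6987901). Capitals mark the GC box GGGCGG or its reverse complement CCGCCC, the recognition letters of Sp1 family factors. The 5 letters ACGTG (or CACGT on the other strand), a form of the core of the element bound by hypoxia-inducible factors, were also searched.
Vegfa: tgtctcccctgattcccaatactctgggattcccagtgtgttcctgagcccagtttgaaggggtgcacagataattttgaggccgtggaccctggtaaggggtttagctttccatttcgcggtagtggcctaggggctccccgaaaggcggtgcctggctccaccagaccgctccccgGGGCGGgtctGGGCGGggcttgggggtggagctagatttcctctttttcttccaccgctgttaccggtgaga
Vegfb: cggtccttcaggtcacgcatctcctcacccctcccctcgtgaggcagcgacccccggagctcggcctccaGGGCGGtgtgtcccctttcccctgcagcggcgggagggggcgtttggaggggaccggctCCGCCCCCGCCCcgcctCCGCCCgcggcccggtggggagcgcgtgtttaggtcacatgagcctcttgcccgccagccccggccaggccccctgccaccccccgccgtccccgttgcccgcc
The Vegfa stretch holds 2 GC boxes and the Vegfb stretch 4, of which 2 are adjacent and merge into a single run of capitals. Neither stretch holds ACGTG. The form GCGTG was not counted, although the Vegfb stretch holds it, and bases beyond these 250 were not searched. A second start of Vegfa in the table (chr17:46025164-46025413 upstream) holds 1 match of each motif. Of all 32851 promoter stretches of this length, 32.7% hold a GC box and 16.6% hold ACGTG. The table gave promoters for 4 of the 6 genes (Vegfa, Vegfb, Vegfc and Pgf).

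Recovered depth ran from 2146071 to 5729829 reads per library, with the deepest being the single P56 library. Sort genes followed the labels: in CPM (reads scaled to a common library total), Epcam was at 43.0 to 356 in epithelial libraries and had at most 1 read in any fibroblast library. The summed CPM of 9 fibroblast genes was 166 to 2495 in the epithelium and 13316 to 38860 in fibroblasts at the shared stages. Leukocyte genes stood out in the epithelial P28 libraries (9 genes, summed CPM 4594 and 4895, against 305 to 1381 in the other 8). Nothing in the labels ties a library to its own animal, and the spread behind each p-value may therefore be technical. The deposited values are tag counts divided by 1 factor per library. They are compared within a cell type, and a count of 0 allows up to 3 reads, 0.403 to 1.37 value units in 1 library (counting error only, since amplified reads without molecular identifiers are not independent molecules). Between cell types the recovered reads of the 20004 shared genes were scaled together, called joint CPM. Changes are log2 differences of the value plus 1, which understates the change of low genes, with limma's standard error (SE) and Benjamini-Hochberg adjusted p over all genes tested, called at 0.05.

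Vegfa was higher in the epithelium than in fibroblasts at all 5 stages and fell in the epithelium between E18.5 and P28. In joint CPM the 10 epithelial libraries ran from 152 through a median of 292 to 482, and the 10 fibroblast libraries from 71.6 through 98.4 to 142. The lowest epithelial library thus lay above the highest fibroblast library. The mean log2 difference over the 5 stages was 1.48 (SE 0.10, adjusted p = 2.62e-11, limma). By stage it was 2.00 at E18.5, 1.58 at P0.5, 1.46 at P2, 1.24 at P7 and 1.11 at P28 (SE 0.23 each), and all 5 were called, with adjusted p from 2.68e-07 to 4.21e-04. The narrowing of the gap from E18.5 to P28, tested as an interaction, was -0.88 (SE 0.32) and was not called (adjusted p = 0.0678, limma).

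**Figure D1:**
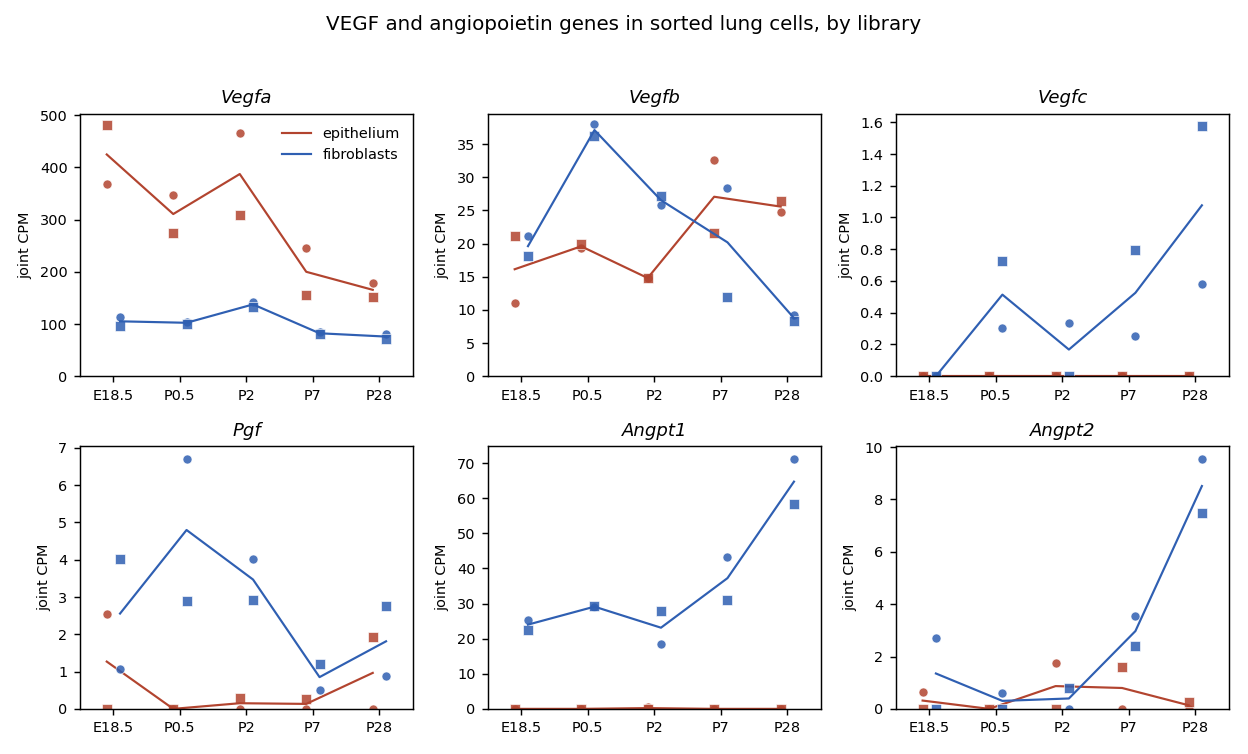
Joint CPM (CPM after common scaling, y axis) of the 6 genes at the 5 shared stages (x axis), with epithelial libraries in red and fibroblast libraries in blue. Circles are replicate 1, squares replicate 2 and lines join the group means. Vegfa is the gene with every epithelial library (152 to 482) above every fibroblast library (71.6 to 142), while Angpt1 has 1 epithelial read in all.

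In the epithelium, the deposited Vegfa values were 376 and 511 at E18.5, 364 and 281 at P0.5, 488 and 336 at P2, 260 and 163 at P7, and 195 and 159 at P28. Both libraries of P7 and of P28 lay below all 6 libraries of the earlier stages. The change from E18.5 to P28 was -1.31 (SE 0.25, adjusted p = 0.00174, limma), from 443 ± 95.3 to 177 ± 25.5 (SD, n = 2). It was called in each fit without 1 library, between -1.09 and -1.53. Of the single steps, P2 to P7 was called, at -0.97 (SE 0.25, adjusted p = 0.0483). That call was lost without P2 replicate 1 (-0.71, adjusted p = 0.30) or P7 replicate 2 (-0.64, adjusted p = 0.325), and over all alternatives its adjusted p was 0.00628 to 0.325. From E18.5 to P7 the change was -1.09 (adjusted p = 0.0078). Marker genes of several cell types moved over the same stages, in which 24.9% of all genes were called from E18.5 to P28. From E18.5 to P28, 8 of 11 genes of alveolar type 1 cells, the thin gas-exchange cells, fell and 1 rose, and their summed CPM went from 8883 and 9053 to 5298 and 5030. Of 10 genes of the surfactant-making type 2 cells, 7 rose and none fell, and their sum went from 9789 and 8568 to 29878 and 32042. The list for mesothelial cells, which line the lung surface, was Msln, Upk3b, Wt1, Lrrn4, Upk1b and the keratin gene Krt19. Of its 3 tested genes, 2 fell and none rose. The sum of the 6 listed went from 6860 and 6678 at E18.5 to 922 and 923 at P7 and 917 and 897 at P28. That sum is not a measure of mesothelial cells alone. Of 8 tested leukocyte genes 7 rose and none fell, with sums of 305 and 496 at E18.5, 1381 and 1233 at P7 and 4594 and 4895 at P28. Of 7 tested fibroblast genes 5 fell and 1 rose, while the sum of the 9 listed was 382 and 329 at E18.5, 166 and 167 at P7 and 2131 and 2495 at P28. The part of these cells in the Vegfa change was not tested, and in bulk samples fewer cells of a type and less RNA per cell cannot be told apart.

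**Figure D2:**
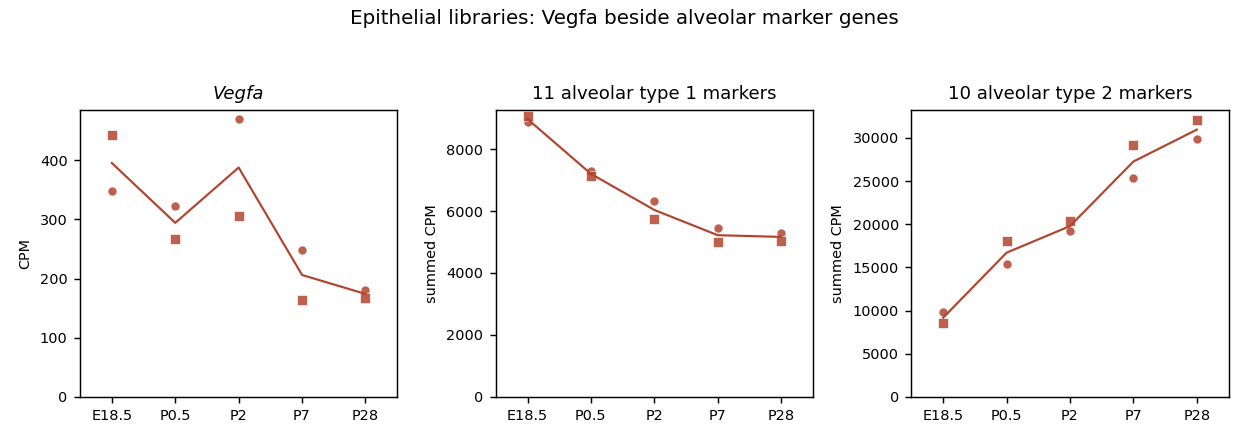
Vegfa in CPM (left) and the summed CPM of 11 alveolar type 1 (middle) and 10 alveolar type 2 marker genes (right) in the 10 epithelial libraries by stage. Symbols are single libraries and lines join group means. Vegfa and the type 1 sum are lowest at P7 and P28, where the type 2 sum is highest (25364 to 32042).

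In fibroblasts, Vegfa lay between 72.6 and 151 up to P28 and was higher in the single library of P56. The values were 118 and 102 at E18.5, 108 and 104 at P0.5, 151 and 138 at P2, 86.9 and 84.3 at P7, and 81.8 and 72.6 at P28. The single P56 library was at 281, above all 10 earlier libraries. From E18.5 to P28 the change was -0.51 (SE 0.19, adjusted p = 0.0449, limma), and it was lost without any 1 of the 4 libraries concerned (adjusted p 0.0613 to 0.217, change -0.41 to -0.61). With P7 as the last stage it was -0.36 (adjusted p = 0.199). The step from P2 to P7 was called at -0.74 (SE 0.19, adjusted p = 0.0218) and was likewise lost without any 1 of its 4 libraries (adjusted p 0.0626 to 0.194, change -0.68 to -0.81).

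The P28 to P56 difference of Vegfa was 1.85 (SE 0.23, adjusted p = 8.41e-06, limma). P56 is 1 library, for which the fit borrows the spread of the replicated fibroblast groups, and the test was added after the data were seen. Other values of that library differed as well. The summed CPM of the 9 fibroblast genes was 16203 at P56 against 38860 at both P28 libraries. The alveolar type 1 list was at 354 CPM, against 188 to 279 in the other fibroblast libraries, with 287 of it from Emp2, a membrane protein gene. Of the defining epithelial genes, Epcam had 0 reads and the type 1 receptor gene Ager 2 reads at P56, and the sum of 6 epithelial genes was 12.2 CPM, within the 9.24 to 128 of the other fibroblast libraries. The part of these differences in the Vegfa value was not tested.

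Vegfb, whose product binds VEGFR1, fell in fibroblasts from E18.5 to P28, and this change differed from that in the epithelium. Epithelial values were 11.4 and 22.4 at E18.5, 20.2 and 20.4 at P0.5, 15.5 and 16.1 at P2, 34.6 and 22.7 at P7, and 27.0 and 27.7 at P28. Fibroblast values were 21.9 and 19.2 at E18.5, 39.3 and 37.4 at P0.5, 27.4 and 28.2 at P2, 29.4 and 12.5 at P7, and 9.45 and 8.37 at P28. Both fibroblast P28 libraries were below every other fibroblast library. The fibroblast change from E18.5 to P28 was -1.12 (SE 0.33, adjusted p = 0.0123, limma), and that from P7 to P28 was -1.04 (SE 0.33, adjusted p = 0.0300). The first call was lost without E18.5 replicate 1 (adjusted p = 0.0655) or P28 replicate 2 (adjusted p = 0.0717). The second was lost without P7 replicate 1 (-0.45, adjusted p = 0.388), P28 replicate 1 (adjusted p = 0.0843) or P28 replicate 2 (adjusted p = 0.133), and the 2 P7 libraries lie further apart than those of any other fibroblast stage. With P7 in place of P28 as the last stage the change from E18.5 was -0.085 (adjusted p = 0.890). In the single P56 library Vegfb was at 32.1, 1.74 above P28 on the log2 scale and within the range of the libraries from P0.5 to P7. In CPM that library was at 41.7, above the 8.08 to 37.9 of the other fibroblast libraries.

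The epithelial change of Vegfb from E18.5 to P28 was 0.74 (SE 0.32) and was not called (adjusted p = 0.107, limma). The difference between cell types in that change was tested directly and came to 1.77 (SE 0.47, adjusted p = 0.0136). Without epithelial E18.5 replicate 1, the lowest epithelial library at 11.4, it was 1.34 (adjusted p = 0.0851). By stage, epithelium minus fibroblasts was -0.33 at E18.5, -0.89 at P0.5, -0.80 at P2, 0.50 at P7 and 1.45 at P28 (SE 0.33 each). P0.5 (adjusted p = 0.0383) and P28 (adjusted p = 0.00144) were called, and the P0.5 call was lost without any 1 of its 4 libraries (adjusted p 0.107 to 0.139). Averaged over the 5 stages the difference was -0.02 (SE 0.15, adjusted p = 0.935, limma), with estimates below 0 at the first 3 stages and above 0 at the last 2. E18.5 (adjusted p = 0.484), P2 (0.0614) and P7 (0.283) were not called. The estimate at E18.5 was 0.11 without epithelial replicate 1. At P7 it was -0.12 without fibroblast replicate 2 and 1.09 (adjusted p = 0.021) without fibroblast replicate 1.

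**Figure D3:**
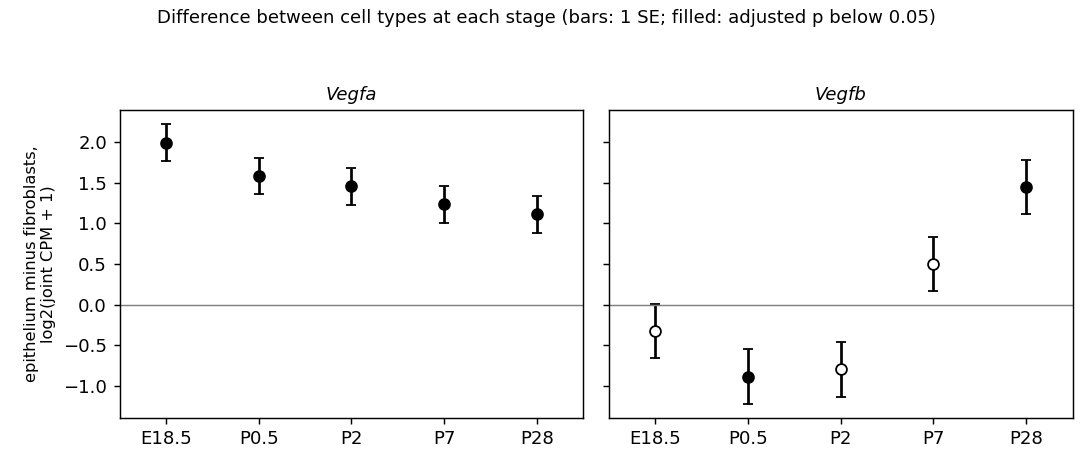
Epithelium minus fibroblasts on the log2(joint CPM + 1) scale (y axis) for Vegfa and Vegfb at the 5 shared stages (x axis). Points are limma estimates, bars are 1 SE and filled points have an adjusted p below 0.05. Vegfa stays above 0 (2.00 to 1.11), and Vegfb goes from -0.89 at P0.5 to 1.45 at P28.

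Vegfc, the lymphatic growth factor, was near the detection limit. No read was seen in the 10 epithelial libraries, whose 34684186 reads in all allow up to 3. Fibroblast libraries held 0 and 0 reads at E18.5, 1 and 2 at P0.5, 1 and 0 at P2, 1 and 2 at P7, 2 and 4 at P28, and 12 at P56. The 13 fibroblast reads at the shared stages, of 31433225, were at least 4.78-fold above the epithelial floor of 3 reads over the group, a figure that leaves out the counting error of the 13 reads themselves. CPM of the 10 and 10 libraries, each scaled to its own total, differed in a two-sided permutation test (p = 0.00309). That test shuffled libraries across stages as if they were exchangeable. Vegfc did not pass the filter on low values (3 or more in at least 2 libraries), so no stage change was tested.

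Pgf, the second ligand of VEGFR1, was low in both populations and higher in fibroblasts. Fibroblast values were 1.12 and 4.27 at E18.5, 6.92 and 2.99 at P0.5, 4.27 and 3.02 at P2, 0.525 and 1.25 at P7, 0.886 and 2.79 at P28, and 0.537 at P56. Replicates spread widely, and no stage step of Pgf was called. The epithelial reads were 17 in all, of which 8 were in E18.5 replicate 1 and 7 in P28 replicate 2, and 6 of 10 libraries held none. Pooled over the shared stages, fibroblasts had 5.32 times the pooled epithelial CPM (exact 95% interval 3.13 to 9.57, counting error only). The difference over the 5 stages was -1.30 (SE 0.27, adjusted p = 2.46e-04, limma). By stage it was called at P0.5 (adjusted p = 0.00230) and P2 (adjusted p = 0.0122), where the epithelium held 0, 0, 0 and 1 reads. The P2 call was lost without epithelial P2 replicate 1 (adjusted p = 0.0767) or fibroblast P2 replicate 1 (adjusted p = 0.0776). Pgf passed the filter through its fibroblast libraries, so a difference in this direction was built into its being tested.

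Angpt1, the activating ligand of Tie2, was a fibroblast transcript that rose with age. Fibroblast values were 26.4 and 23.9 at E18.5, 29.9 and 30.3 at P0.5, 19.6 and 28.8 at P2, 44.9 and 32.6 at P7, 72.6 and 59.0 at P28, and 56.7 at P56. Both P28 libraries lay above all earlier ones. P56 lay just under them in deposited values, but in CPM it was at 73.6, against 70.0 and 57.0 at P28. The rise from E18.5 to P28 was 1.35 (SE 0.26, adjusted p = 5.28e-04, limma) and was called in each fit without 1 library, with adjusted p from 0.00280 to 0.0123. From E18.5 to P7 alone it was 0.59 (adjusted p = 0.123). The step from P7 to P28 was 0.76 (SE 0.26, adjusted p = 0.0449) and was lost without P7 replicate 2 (0.53, adjusted p = 0.245), P28 replicate 1 (adjusted p = 0.237) or P28 replicate 2 (adjusted p = 0.0696), with TMM scaling (adjusted p = 0.0610) and with DESeq2 (adjusted p = 0.0558). From P28 to P56 the difference was -0.21 (SE 0.32) and was not called (adjusted p = 0.670), and with TMM scaling it was 0.0027.

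A single Angpt1 read, in P2 replicate 1, was found among all 10 epithelial libraries, against 1129 in the 10 fibroblast libraries of the same stages. The ratio of pooled CPM was 1246 (exact 95% interval 223 to 49248, counting error only). Angpt1 was called at each of the 5 stages, with adjusted p from 9.23e-12 to 2.12e-09 (limma), but it passed the filter through its fibroblast libraries, so the direction of these tests was built in.

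Angpt2, the context-dependent Tie2 ligand, was scarce in fibroblasts around birth and higher at P28. Values were 2.81 and 0 at E18.5, 0.629 and 0 at P0.5, 0 and 0.823 at P2, 3.68 and 2.51 at P7, 9.74 and 7.58 at P28, and 7.12 at P56. All 3 libraries of P28 and P56 lay above the other 8. The change from E18.5 to P28 was 2.30 (SE 0.60, adjusted p = 0.00598, limma), with 10 and 0 reads at E18.5 and 33 and 19 at P28. It was lost without E18.5 replicate 2 (1.33, adjusted p = 0.134), without P28 replicate 1 (adjusted p = 0.0567) and with DESeq2 (adjusted p = 0.0604), and from E18.5 to P7 it was 1.05 (adjusted p = 0.240). Over all alternatives its adjusted p was 8.52e-04 to 0.240. Mcph1, which covers Angpt2 on the other strand, was at 1.97 and 0.853 at E18.5 and at 1.48 and 0 at P28, and its part in the Angpt2 values was not tested. Angpt2 passed the filter through its late libraries, so its test is no independent support for a rise.

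The epithelium held 13 Angpt2 reads, in 4 of 10 libraries, with 6 of them in P7 replicate 2 and 4 in P2 replicate 1. Fibroblasts of the same stages held 87, a ratio of pooled CPM of 7.38 (exact 95% interval 4.10 to 14.4, counting error only). The difference over 5 stages was -0.996 (SE 0.27, adjusted p = 0.00260, limma) and was not called with DESeq2 (adjusted p = 0.126). Here too the filter was passed through fibroblast libraries, which fixed the direction. Among single stages P28 alone was called (adjusted p = 2.55e-04, limma), with 0 and 1 epithelial reads against 33 and 19, and DESeq2 did not call it (adjusted p = 0.122). Angpt2 is known to be strong in endothelial cells, and the fibroblast sort removed cells positive for CD31 or CD146, markers of endothelium and, for CD146, of mural cells too. In the fibroblast libraries 13 endothelial marker genes summed to 22.5 to 41.6 CPM at the shared stages and 47.6 CPM at P56. From E18.5 to P28, 33.6% of all genes were called, with a median of 0.0068 over all genes. Of the 4 tested endothelial marker genes, 2 rose and none fell over that interval (median 1.08). Those were Kdr (1 and 0 reads to 19 and 19) and Tek (1 and 0 to 13 and 11). Their P28 libraries helped both pass the filter, so this count and median were partly built in. Pecam1, the gene of CD31, went from 0 and 0 reads to 3 and 5, and Cdh5, the endothelial cadherin gene, from 0 and 0 to 0 and 1. The sum of 7 pericyte genes went from 24.7 to 38.0 CPM at E18.5 to P7 to 118 and 105 CPM at P28 and 84.5 CPM at P56. Most of it was Abcc9 (96.4 and 85.1 CPM at P28), while the pericyte gene Rgs5 had 0 and 1 reads there. Of the 7 pericyte genes 1 rose and none fell from E18.5 to P28 (33.6% of all genes were called). The part of these cells in the values of Angpt2 and Angpt1 was not tested.

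**Figure D4:**
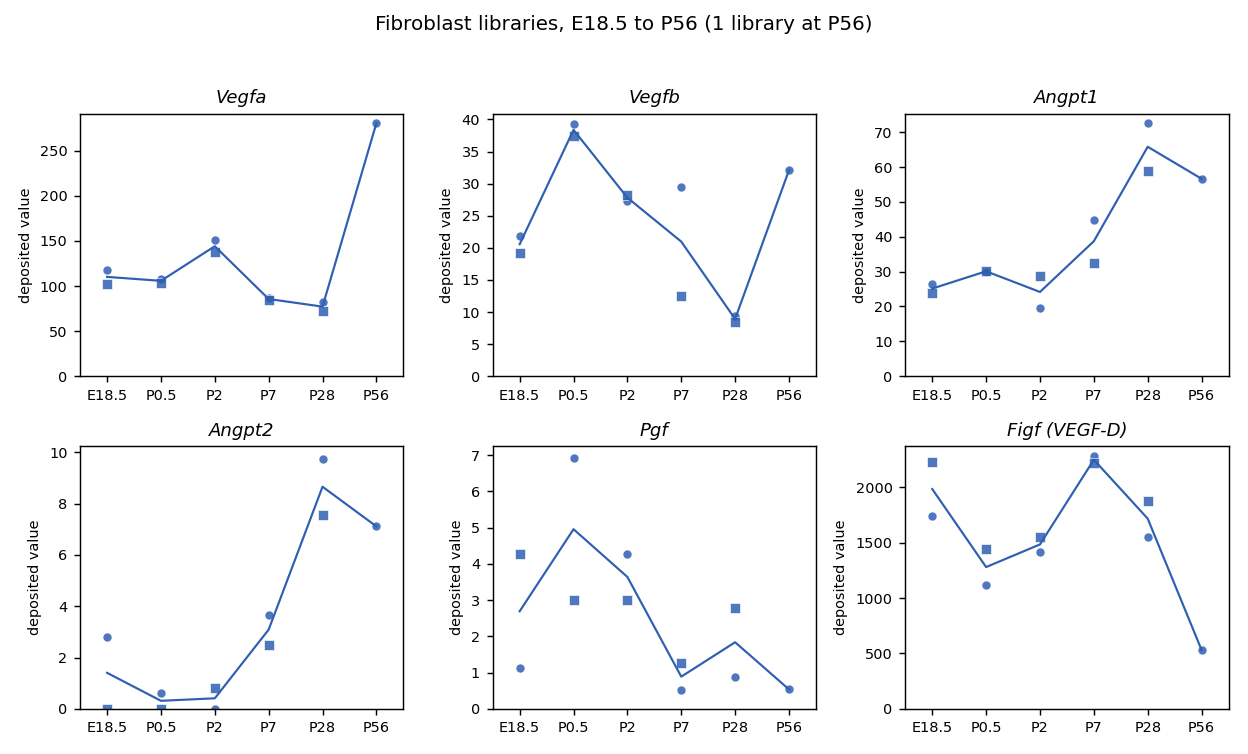
Deposited values (y axis) of 5 member genes and of Figf, the VEGF-D gene, in the 11 fibroblast libraries from E18.5 to P56 (x axis). Circles are replicate 1, squares replicate 2, lines join group means, and P56 is 1 library. On this scale Angpt1 and Angpt2 are highest at P28 (Angpt1 72.6 and 59.0), and Vegfa is highest at P56 (281) where Figf is lowest (532). In CPM, Angpt1 is highest at P56 (73.6), and Angpt2 at P56 (9.25) lies between the P28 libraries (9.38 and 7.31).

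Counts of called members are given beside the share of all genes called in the same comparison. In the epithelium only Vegfa and Vegfb passed the filter. From E18.5 to P0.5, 0 of the 2 were called against 14.3% of all genes tested, from P0.5 to P2 0 against 8.82%, and from P7 to P28 0 against 7.28%. From P2 to P7, 1 of 2 was called against 3.71%, and from E18.5 to P28, 1 of 2 against 24.9%. In fibroblasts 5 members passed, all but Vegfc. At birth and from P0.5 to P2, 0 of 5 were called against 15.4% and 16.9% of all genes. From P2 to P7, 1 of 5 was called (6.64% of all genes), and from P7 to P28, 2 of 5 (20.8%). From E18.5 to P28, 4 of 5 were called, with Angpt1 and Angpt2 rising and Vegfa and Vegfb falling (33.6%). Angpt2 passed the filter through its late libraries, so its rise was built in and nothing is read from its part in that count. From P28 to P56, 2 of 5 were called, both higher (31.2%).

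Between cell types 5 members could be tested. Over the 5 stages 4 of 5 were called, with Vegfa higher in the epithelium and Angpt1, Angpt2 and Pgf higher in fibroblasts, against 62.4% of all genes. The last 3 passed the filter through fibroblast libraries alone, so nothing is read from their share here or by stage. By stage the calls were 2 of 5 at E18.5 (38.2% of all genes), 4 of 5 at P0.5 (41.0%), 3 of 5 at P2 (41.0%), 2 of 5 at P7 (35.5%) and 4 of 5 at P28 (38.1%). For a change that differed between cell types, 0 of 5 were called across birth (3.53% of all genes), 0 of 5 from P7 to P28 (8.59%) and 1 of 5, Vegfb, from E18.5 to P28 (15.1%).

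The remaining VEGF ligand, VEGF-D, is listed under its older symbol Figf and was read at the same scale. It signals to VEGFR3 and its joint CPM was 1679 ± 379 in fibroblasts and 17.7 ± 7.03 in the epithelium (SD, n = 10 libraries each). The log2 difference of Figf over the 5 stages was -6.56 (SE 0.10, adjusted p = 4.88e-22, limma). Fibroblast Figf values were 1740 and 2229 at E18.5, 1121 and 1439 at P0.5, 1414 and 1555 at P2, 2282 and 2217 at P7, 1556 and 1880 at P28, and 532 at P56. It fell across birth (-0.63, SE 0.19, adjusted p = 0.0290) and was lower at P56 than at P28 (-1.68, SE 0.23, adjusted p = 2.33e-05), the opposite sign to Vegfa and Vegfb in the same library. The small epithelial Figf signal fell from E18.5 to P28 (-1.27, SE 0.31, adjusted p = 0.00758).

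The signalling receptors were low in both populations. Flt1 had 11 epithelial and 18 fibroblast reads over the shared stages, Flt4 had 20 and 0, and Ptprb, a phosphatase that acts on Tie2, had 11 and 30. Kdr was the exception, with 357 epithelial reads in all and its highest values at E18.5. Its epithelial reads were 140 and 74 at E18.5 but 13 and 18 at P0.5, a fall of 2.50 (SE 0.67, adjusted p = 0.0225, limma), and Tie1, a partner of Tie2, fell with it, from 26 and 14 reads to 2 and 3 (-1.998, SE 0.51, adjusted p = 0.0182). Tie1 passed the filter through its E18.5 libraries, so a fall from that stage was built into its being tested. Both genes belong to the endothelial marker list, of which 5 genes were tested across birth in the epithelium. Of these, 2 fell and none rose (median -1.43 against -0.018 over all genes, of which 14.3% were called). The sum of the 13 listed went from 217 and 210 CPM at E18.5 to 144 and 142 CPM at P0.5, most of it from Esam, a junction gene, while Pecam1 and Cdh5 had 0 reads at E18.5. In fibroblasts Kdr went the other way, from 1 and 0 reads at E18.5 to 19 and 19 at P28 (2.73, SE 0.60, adjusted p = 0.00156), and Tek from 1 and 0 to 13 and 11 (2.17, SE 0.48, adjusted p = 0.00179). Both were low in fibroblasts, with highest joint CPM of 7.48 for Kdr and 4.33 for Tek, each in a P28 library. Their P28 libraries helped them pass the filter, so a rise to that stage was at least partly built into their being tested. The part of endothelial RNA in these receptor reads was not tested.

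The co-receptors were well expressed. Nrp1 in the epithelium went from 137 ± 21.0 at E18.5 to 231 ± 3.86 at P0.5 (0.76, SE 0.17, adjusted p = 0.0108, limma) and was 283 ± 13.0 at P28 (SD, n = 2). In fibroblasts Nrp1 was lowest at P7 (117 ± 2.53) and rose to 299 ± 11.9 at P28 (1.35, SE 0.17, adjusted p = 1.32e-05). Nrp2, the co-receptor tied to lymphatic growth, fell from E18.5 to P28 in the epithelium (63.0 ± 5.57 to 23.2 ± 5.47, -1.42, SE 0.22, adjusted p = 3.59e-04). It also fell in fibroblasts from P7 to P28 (118 ± 7.85 to 63.8 ± 3.35, -0.88, SE 0.20, adjusted p = 0.00357). Over the 5 stages Nrp1 was higher in the epithelium (0.40, SE 0.07, adjusted p = 7.91e-05) and Nrp2 higher in fibroblasts (-0.81, SE 0.09, adjusted p = 6.27e-08). Of the 8 receptors and co-receptors, 4 passed the filter in fibroblasts, of which 3 rose from E18.5 to P28 and none fell, with a median of 1.45 against 0.0068 over all genes, of which 33.6% were called. In the epithelium 4 passed, of which 1 rose and 3 fell (median -1.89 against 0.031, with 24.9% of all genes called). Among the 3 that fell was Tie1, whose fall from E18.5 was built in by the filter. The 3 that rose in fibroblasts included Kdr and Tek, whose rise to P28 was at least partly built in. Nothing is therefore read from that count and median.

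**Figure D5:**
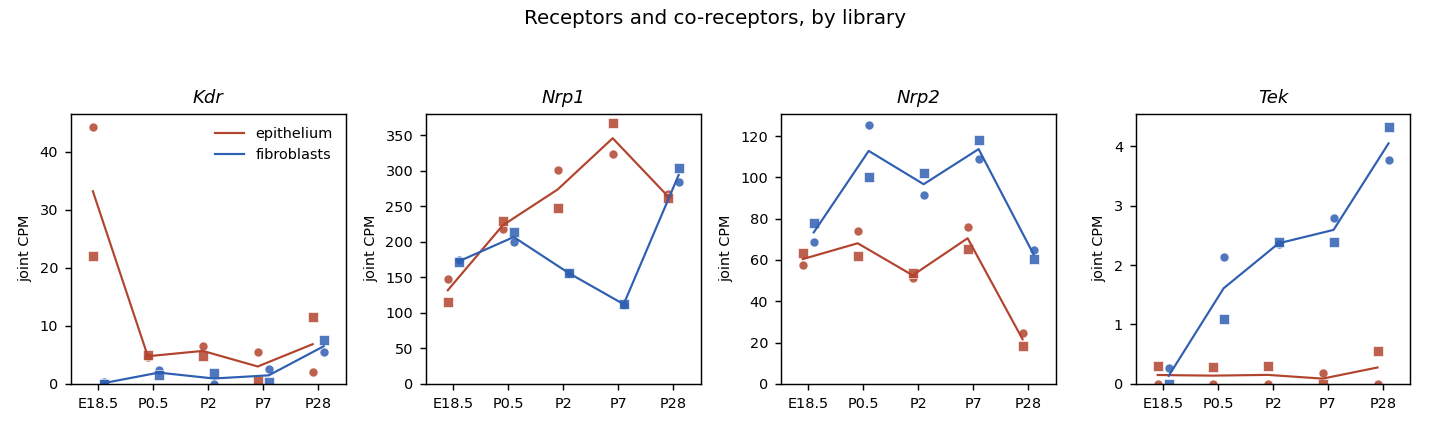
Joint CPM (y axis) of Kdr, Nrp1, Nrp2 and Tek at the 5 shared stages (x axis), with epithelial libraries in red and fibroblast libraries in blue. Circles are replicate 1, squares replicate 2 and lines join group means. Kdr stands out in the epithelium at E18.5, and Nrp1 and Tek are highest in fibroblasts at P28.

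Vegfa is a classical target of hypoxia-inducible factors, and a list of 13 other hypoxia-inducible genes was followed beside it. In the epithelium 5 of 11 tested fell across birth and none rose (14.3% of all genes were called, median -0.69 against -0.018 over all genes), among them Hk2 (-1.06) and Pgk1 (-0.95), of glycolysis, while Vegfa was not called (-0.45, SE 0.25, adjusted p = 0.256, limma). From E18.5 to P28, 3 fell and 1 rose (24.9% of all genes were called). In fibroblasts 5 of 10 rose and 2 fell from P0.5 to P2, where 16.9% of all genes were called. From P2 to P7, 3 fell and none rose (6.64%), and from P7 to P28, 6 rose and none fell (20.8%). The glucose transporter gene Slc2a1 was at 199 ± 5.46 at P0.5, 509 ± 3.15 at P2, 87.7 ± 5.27 at P7 and 255 ± 36.2 at P28 (SD, n = 2). Vegfa in fibroblasts had its highest shared-stage mean at P2, and its step from P7 to P28 was -0.15 (SE 0.19, adjusted p = 0.632). At P56, 4 of the 10 genes were lower than at P28 and none higher (31.2% of all genes were called), with Hk2 at 33.8 against 254 ± 36.9. The part of oxygen in the Vegfa values was not tested.

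Among the oxygen sensors, Epas1, the gene of HIF-2 alpha, rose from E18.5 to P28 in the epithelium (7.38 ± 1.95 to 51.7 ± 3.82, 2.67, SE 0.27, adjusted p = 8.01e-06, limma) and in fibroblasts (3.08, SE 0.51, adjusted p = 1.06e-04). Egln3, a prolyl hydroxylase gene, fell over the same interval in the epithelium (-3.82, SE 0.42) and in fibroblasts (-2.69, SE 0.52). Of the 9 sensors, 2 rose and 3 fell in the epithelium (24.9% of all genes were called), and 2 rose and 2 fell in fibroblasts (33.6%).

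VEGF-C needs processing to become active, and its cofactor Ccbe1 was a fibroblast gene, at 39.0 ± 4.46 at E18.5, 8.51 ± 3.48 at P2 and 34.7 ± 4.45 at P28 (SD, n = 2). Over the 5 stages Ccbe1 differed between epithelium and fibroblasts by -4.16 (SE 0.17, adjusted p = 2.93e-15, limma). The fibroblast libraries by themselves carried Ccbe1 past the filter, so this direction was largely built into its being tested. Of 7 tested genes for VEGF-C processing and VEGF binding to matrix, 4 rose and 1 fell in fibroblasts from E18.5 to P28 (33.6% of all genes were called), with Hspg2, the gene of the heparan sulphate proteoglycan perlecan, up by 2.72 (SE 0.38). In the epithelium Hspg2 fell by 1.89 (SE 0.34) and the metalloproteinase gene Adamts1 rose by 1.22 (SE 0.22).

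Among angiopoietin-like genes, which do not bind Tie2, Angptl4 in fibroblasts rose across birth from 7.64 ± 2.46 to 40.7 ± 4.68 (2.30, SE 0.27, adjusted p = 1.22e-05, limma) and was 125 at P56. Angptl2 rose from 0.421 ± 0.596 at E18.5 to 31.2 ± 4.90 at P28 (4.56, SE 0.51, adjusted p = 1.33e-06). Of the 15 genes for angiogenesis inhibitors and other endothelial ligands, 9 were tested in fibroblasts, where 5 rose and 2 fell from E18.5 to P28 (33.6% of all genes were called). The anti-angiogenic thrombospondin gene Thbs1 rose (90.8 ± 22.2 to 334 ± 62.0) and the guidance ligand gene Slit2 fell (-1.48, SE 0.19, limma). In the epithelium, where 24.9% of all genes were called, 1 of 9 rose, Thbs1 (22.7 ± 1.37 to 51.9 ± 8.57), and 2 fell, the semaphorin genes Sema3a (-1.07, SE 0.25) and Sema3c (-1.34, SE 0.37).

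Across libraries, Angpt1 and Angpt2 in fibroblasts had the highest correlation of any member pair (Pearson r = 0.897 over 11 libraries), and Angpt2 and Pgf the lowest (-0.736). Vegfa and Vegfb correlated at 0.576 over the 11 fibroblast libraries and at -0.566 over the 10 epithelial ones. These values describe libraries that share stages and are given without a test. The genes most like Vegfa were Ppfia1 (0.969), Eef1a1 (0.957) and Tbc1d10b (0.955) in the epithelium, over 6119 genes with a mean of at least 10. Those most like Angpt1 in fibroblasts were C3 (0.968), Ogn (0.950) and Tmx3 (0.948), and those most like Angpt2 were Cpne3, Ak1 and Dag1 (0.936 to 0.950). Vegfb was followed most closely by Relt, Apoe and Napa in the epithelium (0.919 to 0.942) and by Ptms, Ror2 and Jtb in fibroblasts (0.931 to 0.948). Fibroblast Vegfa had Smek1, Fbrsl1 and Cept1 (0.925 to 0.928) as its nearest genes, and Pgf had Sltm, Slc35e2 and Glg1 (0.846 to 0.874).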

How the data were processed

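The labels' protocols describe enzymatic digestion of lungs, magnetic depletion, sorting, amplification of poly(A) RNA and 3'SAGE-seq on an Ion Proton instrument. Per the submitters' processing notes, Bowtie2 2.2.5, R 3.4.0 and the build mm10 were used, and the counting and normalisation are not given in the sources used here. Each library has its own table, in which the authors deposited 1 signal value per gene that equals a tag count over a library factor. That factor was recovered from the low values, and 100% of values came out as whole reads (tolerance 0.01 of a read). Stages were compared within a cell type with limma 3.58.1 (R 4.3.3, mean-variance trend) on log2(deposited value + 1), on genes at 3 or more in at least 2 libraries, with 10 epithelial or 11 fibroblast libraries in 1 fit (5 residual degrees of freedom each). Cell types were compared on recovered reads scaled by TMM (20 libraries, 10 degrees of freedom). All tests were two-sided. Scripts were tested on simulated data.

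The members, gene lists and the rule for named genes were chosen with earlier results of these data known. Named were the 6 members, the receptors, of each list up to 4 called genes (or 2 others) with the smallest p, and the 3 genes most correlated with each member. Neighbouring or overlapping genes were named after their values were seen. Alternatives were edgeR 4.0.16 (quasi-likelihood) and DESeq2 1.42.0 on recovered reads, other scalings, pseudocounts of 0.5 and 4, no filter or a filter at 10, a replicate block, other last stages (added after seeing the data), only the groups compared, and leaving out each library. Positions come from GENCODE and promoter sequences from RefSeq. Libraries of 1 group differed beyond sampling noise (chi-square over its degrees of freedom 4.64 to 10.6).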

Additional observations from a re-analysis of the deposited data

Results flagged for a closer look

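Vegfb was picked out because its change from E18.5 to P28 differed between the cell types in a test of the difference itself. The interaction was 1.77 on the log2 scale (SE 0.47, adjusted p = 0.0136, limma), with both fibroblast libraries at P28 (9.45 and 8.37) below both at E18.5 (21.9 and 19.2) and both epithelial libraries at P28 (27.0 and 27.7) above both at E18.5 (11.4 and 22.4). Without epithelial E18.5 replicate 1 it was 1.34 (adjusted p = 0.0851), and over all alternatives the adjusted p was 0.00485 to 0.0851. No group had enough libraries for a search for outlying ones.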

How the results depend on the processing

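Of 1244 member values under alternative settings, 1144 kept direction and side of the threshold, 48 lost the call, 12 gained one and 40 changed sign, and the cause was not tested. Signs changed outside the left-out libraries for Angpt1 from P28 to P56 in fibroblasts (0.0027 with TMM), for Vegfb between cell types over 5 stages (0.0062 on the deposited scale), for Angpt2 in the interaction across birth (-1.14 with edgeR) and for Pgf in that from P7 to P28 (-0.0074 with a pseudocount of 4). Leaving out 1 library each gave these ranges. In the epithelium, Vegfb from E18.5 to P0.5 was -0.14 to 0.78, and from P7 to P28 Vegfa was -0.56 to 0.11 and Vegfb -0.33 to 0.26. In fibroblasts, from E18.5 to P0.5 Angpt2 was -1.58 to 0.35 and Vegfa -0.16 to 0.047, from P0.5 to P2 Angpt2 was -0.35 to 0.51 and Pgf -0.78 to 0.20, Vegfb from P2 to P7 was -1.09 to 0.078, and Pgf from E18.5 to P28 was -0.98 to 0.33. Between cell types Vegfb over 5 stages was -0.13 to 0.10. At E18.5 Angpt2 was -1.53 to 0.35, Pgf -1.70 to 0.13 and Vegfb -0.77 to 0.11. Angpt2 was -0.69 to 0 at P0.5 and -0.42 to 1.03 at P2, Vegfb at P7 was -0.12 to 1.09, and Pgf at P28 was -1.37 to 0.15. The interactions ran from -0.70 to 1.19 for Angpt2 across birth, from -0.68 to 0.84 for Pgf and -0.45 to 0.21 for Vegfa from P7 to P28, and from -0.76 to 1.07 for Pgf from E18.5 to P28.

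The count of calls among members in the epithelium was 2, and 1 with a pseudocount of 0.5, no filter, or only the groups compared (1 to 3 without 1 library, with 1 left without P2 replicate 1, P7 replicate 2 or any 1 library of P0.5 or P28). In fibroblasts it was 7, and 3 without a filter (3 to 7 without 1 library, with 3 left without either P28 library). Over the 5 stages it was 4, 2 with a filter at 10, which leaves out Angpt2 and Pgf, and 3 without the P28 libraries. For changes that differ between cell types it was 1, then 2 with DESeq2 size factors, 2 with a filter at 10, 3 with a pseudocount of 4 and 0 to 3 without 1 library (0 without epithelial E18.5 replicate 1). With the replicate block it was 2, adding Vegfa from E18.5 to P28 (adjusted p = 0.0449, limma). Within a cell type, the difference between replicate 1 and replicate 2 over genes was correlated between stages. The correlations were -0.152 to 0.201 in the epithelium (2 of 10 pairs over 0.1) and -0.0867 to 0.0844 in fibroblasts. Replicate numbers thus carried little shared difference across stages. Pairing of epithelium with fibroblasts of the same stage was not checked. The block changed no other count of calls. Scalings moved the median of all genes by over 0.1 for P28 to P56 alone (by 0.128 with edgeR, 0.179 with TMM and 0.111 without a filter, from -0.116). Only the groups compared was not run between cell types. Counts under about 10 reads limit Vegfc, Pgf and Angpt2.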

Other observations

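Dnajc4, the gene whose annotated end lies just upstream of the Vegfb start on the same strand, was at 16.4 in the P56 fibroblast library and at 82.2 to 160 in the other 10, while Vegfb was at 32.1 at P56 and 9.45 and 8.37 at P28. Dnajc4 was chosen after its values were seen.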
